A study of Homo sapiens with 18 samples.

Results

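A set of 10 genes of the unfolded protein response was followed across 6 combinations of oxygen and drug in MDA-MB-231 cells, a mesenchymal-like, triple-negative human breast cancer line. They were HSPA5, HSP90B1, HYOU1, DNAJB9, DNAJC3, SDF2L1, PDIA4, CRELD2, HERPUD1 and XBP1. The genes were listed by symbol, and every probe set that the gene table of the array assigns to 1 of these symbols alone was taken. This gave 20 probe sets for 10 of the 19775 genes with a probe set of their own. All cells were incubated for 16 hours in medium without serum. N and H denote cells without drug under normoxia and under hypoxia at 1% oxygen, N tax and H tax cells with 50 µM paclitaxel, and N epi and H epi cells with 10 µM epirubicin. Paclitaxel stabilizes microtubules, and epirubicin is an anthracycline that acts on DNA and topoisomerase II. Each condition had 2 Affymetrix HG-U133 Plus 2.0 arrays. The values are log2 signals after GC-RMA, so a difference of 1 is a doubling.

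The endoplasmic reticulum (ER) folds the proteins that a cell secretes or puts in its membranes. When unfolded proteins build up there, the membrane sensors IRE1, PERK and ATF6 start the unfolded protein response, which slows translation and raises the transcription of chaperones, folding enzymes and the machinery that removes misfolded proteins. IRE1 splices XBP1 mRNA so that it encodes an active transcription factor, and ATF6 is cleaved to release one. Low oxygen is a known trigger of the response in tumour cells, since disulfide bonds form poorly without oxygen.

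ATF6 and XBP1 bind the ER stress response element, written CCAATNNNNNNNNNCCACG and called ERSE, and a second form, written ATTGGNCCACG and called ERSE-II. Both forms hold the core CCACG, so each match to them is also a match to the core. The promoter windows of RefSeq (build GRCh38.p14, 250 bases before to 50 after each gene start, both strands searched) held ERSE or ERSE-II for 7 of the 10 genes, against 44 of the 27305 genes in the table (0.161%). These 44 include the 7, and the share among the 10 is not a test. The 10 were listed as genes of the response, and these are its known control elements. The 10 genes had 12 windows, since XBP1 and PDIA4 have 2 each. The stretches around the matches are shown because these are the known control elements of the genes whose transcripts are described below. They are written 5′ to 3′ on the strand of the gene, with ERSE or ERSE-II in capitals and up to 25 bases either side. For DNAJB9, which held neither form, the capitals mark the core CCACG or its reverse complement.
HSPA5, chr9:125241366-125241434, minus strand: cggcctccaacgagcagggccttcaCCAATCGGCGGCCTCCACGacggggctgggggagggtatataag
HSP90B1, chr12:103930191-103930364, plus strand: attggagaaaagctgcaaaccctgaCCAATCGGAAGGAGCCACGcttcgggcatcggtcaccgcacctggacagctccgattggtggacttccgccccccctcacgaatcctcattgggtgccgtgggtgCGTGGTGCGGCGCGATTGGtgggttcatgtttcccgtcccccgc
CRELD2, chr22:49918529-49918597, plus strand: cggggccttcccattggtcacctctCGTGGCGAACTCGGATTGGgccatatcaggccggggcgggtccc
XBP1, chr22:28800578-28800646, minus strand: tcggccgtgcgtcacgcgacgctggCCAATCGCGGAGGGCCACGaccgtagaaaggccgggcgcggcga
HERPUD1, chr16:56932000-56932060, plus strand: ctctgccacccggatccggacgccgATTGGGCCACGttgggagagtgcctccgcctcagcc
SDF2L1, chr22:21642089-21642149, plus strand: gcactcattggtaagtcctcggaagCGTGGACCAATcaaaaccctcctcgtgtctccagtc
HYOU1, chr11:119057249-119057415, minus strand: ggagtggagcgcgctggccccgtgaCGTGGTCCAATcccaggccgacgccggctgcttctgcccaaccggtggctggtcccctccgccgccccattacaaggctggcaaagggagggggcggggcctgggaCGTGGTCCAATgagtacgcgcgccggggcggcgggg
DNAJB9, chr7:108569775-108569856, plus strand: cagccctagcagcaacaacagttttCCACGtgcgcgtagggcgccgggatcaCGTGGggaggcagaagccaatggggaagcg

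HSPA5, HSP90B1, CRELD2 and XBP1 (in 1 of its 2 windows) held ERSE, and HSP90B1 held it 2 times, once in each orientation. HERPUD1, SDF2L1 and HYOU1 held ERSE-II, and HYOU1 held it 2 times. DNAJB9, DNAJC3 and PDIA4 held neither form in these windows. The core was in windows of all 10 genes and of 42.1% of all genes. TGACG, the core of the site of CREB and ATF proteins, was in windows of 6 of the 10 genes and of 28.4% of all genes. These matches describe the letters of the windows and are not measurements of binding.

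**Figure D1:**
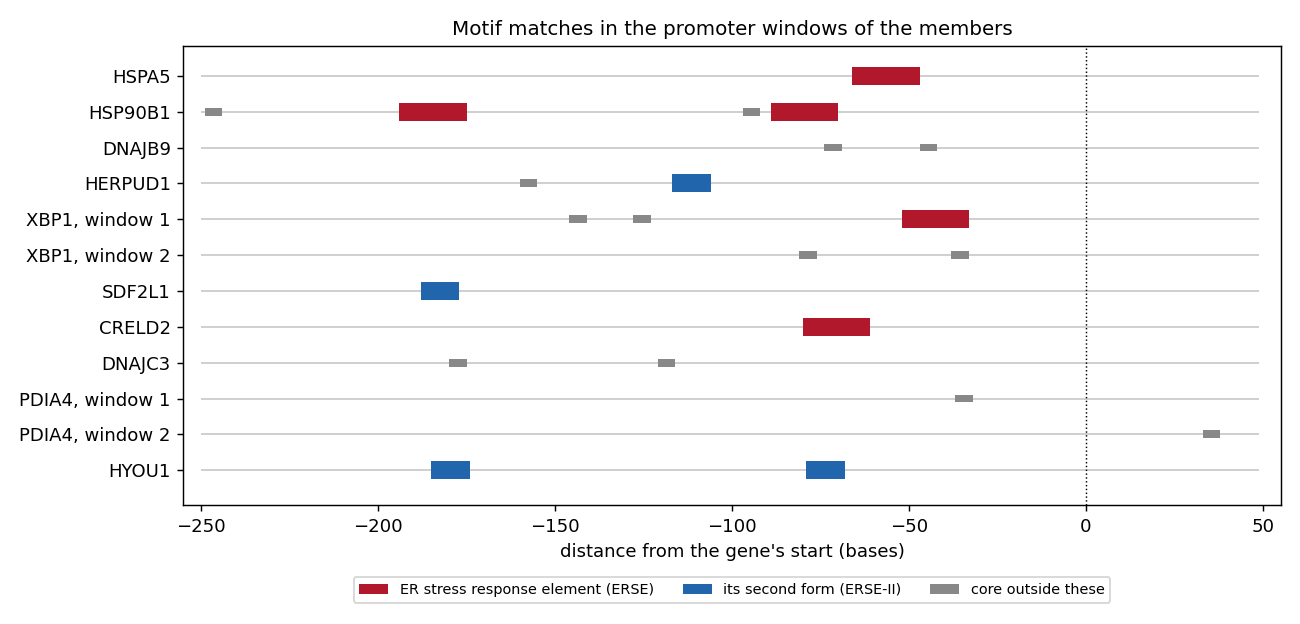
Motif matches in the 12 promoter windows of the 10 genes, plotted by distance in bases from the gene start on the strand of each gene. Red bars mark ERSE, blue bars ERSE-II and grey bars the core outside both, and a reader should see the 7 genes with a red or blue bar and the 3 with grey bars alone.

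Of 18 deposited arrays, 12 could be assigned to a condition, and on the other 6 the title and the source name disagreed on the drug. Tests were limited to probe sets whose signal, off the log scale, was above 8.84 on both arrays of some condition. This left 24151 of 54613 probe sets, among them 18 of the 20 considered here, with at least 1 for each of the 10 genes. The 2 left out were a second HERPUD1 probe set and a second XBP1 probe set. Each gene is described by its brightest probe set, averaged over the 12 arrays. The shares over all probe sets given below count every tested probe set, also dimmer ones of the same gene. They are thus not a fully like measure. The line markers VIM and CD44 were above this threshold on all 12 arrays, PGR and CDH1 on none and ESR1 on 1, but SPARC was below it on all 12 and EPCAM, listed as low for this line, was above it on all 12. The hypoxia marker NDRG1 differed by 3.46 log2 units from N to H, by 3.03 from N tax to H tax and by -0.38 from N epi to H epi. ADM, another hypoxia marker, differed by 3.97, 1.98 and -2.34, and VEGFA by 0.54, 0.39 and -2.17. The 2 arrays of a condition differed by more than 1 log2 unit on 8.6% of the tested probe sets for N epi, on 4.69% for H epi, and on 0.323% to 1.35% for the other conditions.

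**Figure D2:**
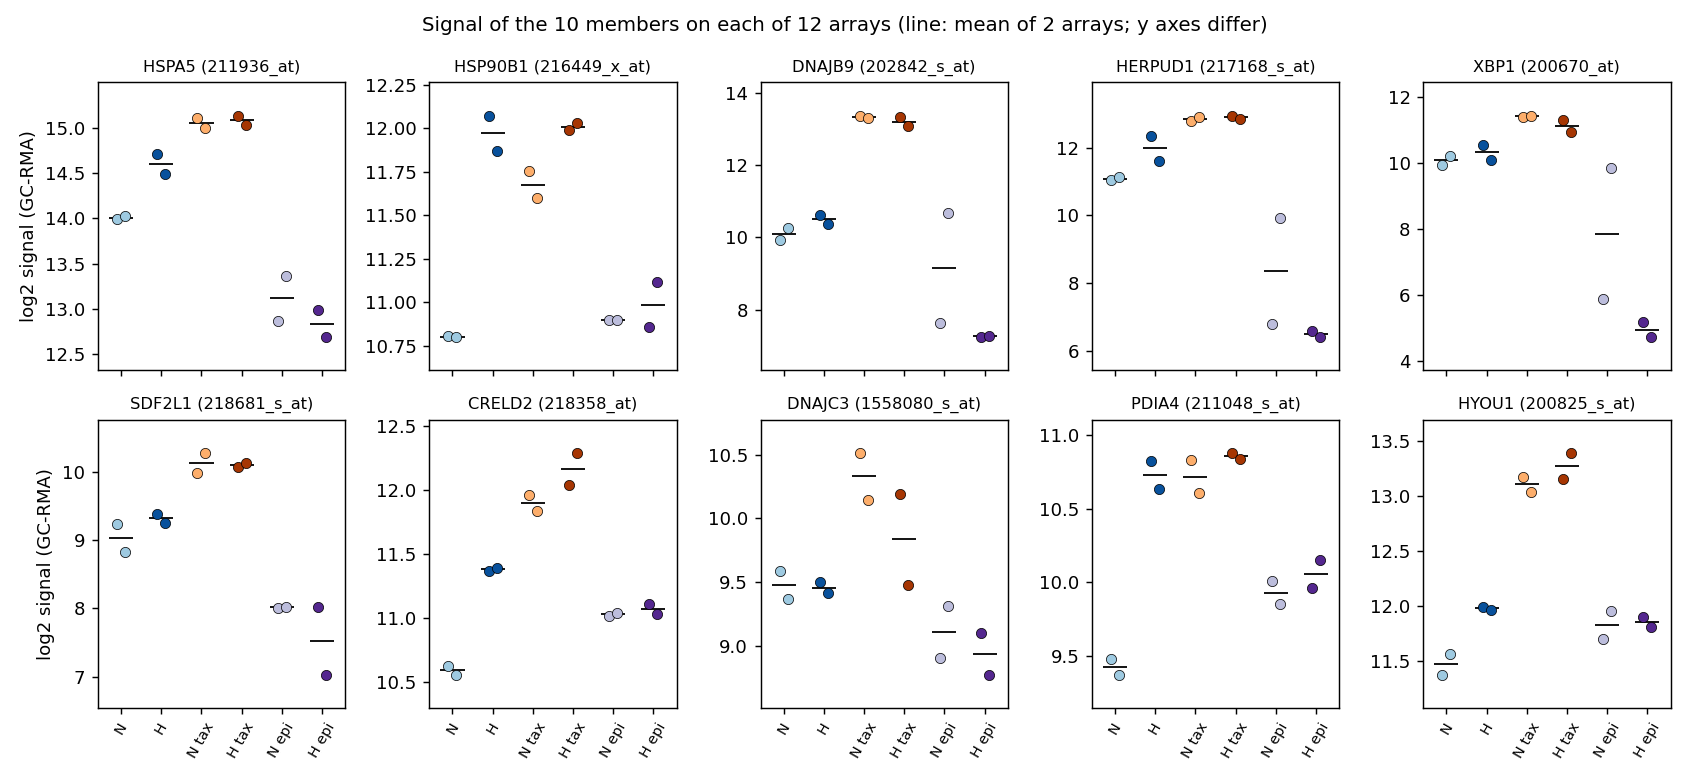
Log2 signal of each gene on each of the 12 arrays, by condition, with 2 points per condition and a line at their mean (the y axes differ between panels). All N tax points lie above all N points, and the 2 N epi points lie far apart for DNAJB9, HERPUD1 and XBP1.

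Paclitaxel under normoxia raised most of the genes. All 10 genes had a higher mean in N tax than in N, with no overlap of the arrays, and 8 of the 10 rose past the test (adjusted p under 0.05). Over all tested probe sets, 9.49% rose and 13.8% fell in this comparison. The median change was 1.30 log2 units over the 10 genes and -0.01 over all probe sets. The changes ranged from 0.85 for DNAJC3 to 3.25 for DNAJB9. In bulk RNA of this kind, a change in all cells and a change in some of them cannot be told apart. The p-values measure only the spread between these arrays.

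HSPA5, also called BiP, is the HSP70 chaperone of the ER lumen and holds the stress sensors inactive. Its signal was 13.99 and 14.02 on the N arrays and 15.10 and 14.99 on the N tax arrays. It rose by 1.04 log2 units, or 2.05-fold (standard error 0.18, adjusted p = 0.00517). HSP90B1, also called GRP94, is the HSP90 of the ER. Its signal was 10.81 and 10.80 in N and 11.75 and 11.60 in N tax, a rise of 0.87 (standard error 0.13, adjusted p = 0.00218). HYOU1, an HSP70-like protein that exchanges the nucleotide of HSPA5, was at 11.38 and 11.57 in N and at 13.18 and 13.04 in N tax. It had the lowest adjusted p of the 10 genes, with a rise of 1.63 log2 units (standard error 0.14, adjusted p = 0.000277).

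The co-chaperones hold the gene with the widest change. DNAJB9, also called ERdj4, is an HSP40 protein that recruits HSPA5 to misfolded clients and to IRE1. Its signal was 9.92 and 10.26 in N and 13.37 and 13.31 in N tax, a 9.49-fold rise (log2 change 3.25, standard error 0.76, adjusted p = 0.0177). Its other 2 probe sets rose by 2.97 and 3.75. DNAJC3, also called P58IPK, is another HSP40 partner of HSPA5 and was at 9.59 and 9.37 in N against 10.51 and 10.15 in N tax, a rise of 0.85 (adjusted p = 0.0455). Its 3 other probe sets rose by 0.59 to 0.96. SDF2L1, which works with HSP40 proteins to keep clients soluble, was at 9.24 and 8.82 in N and at 9.98 and 10.27 in N tax, a rise of 1.09 (standard error 0.29, adjusted p = 0.0282).

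Both genes linked to disulfide chemistry rose. PDIA4, a protein disulfide isomerase also called ERp72, was at 9.48 and 9.37 in N and at 10.83 and 10.60 in N tax, a rise of 1.29 (standard error 0.13, adjusted p = 0.000554). CRELD2, a cysteine-rich ER protein with isomerase-like motifs, was at 10.63 and 10.56 in N and at 11.96 and 11.84 in N tax, a rise of 1.31 (standard error 0.11, adjusted p = 0.000321). The lowest N tax array stood more than 1 log2 unit above the highest N array for both.

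HERPUD1 and XBP1 did not pass the test although their arrays were apart. HERPUD1 encodes a membrane protein that assembles the ubiquitin ligase complex of ER-associated degradation. Its signal was 11.05 and 11.14 in N and 12.81 and 12.91 in N tax (log2 difference 1.77, standard error 0.80, adjusted p = 0.154). XBP1, the target of IRE1, was at 9.95 and 10.23 in N and at 11.39 and 11.44 in N tax (log2 difference 1.33, standard error 1.00, adjusted p = 0.398). The array values give its mRNA as a whole and do not tell the spliced form. The fit pools the spread over all 6 conditions, and the N epi arrays of these genes lay 3.13 and 3.96 log2 units apart. Without either N epi array, both genes passed the test at these same differences (adjusted p = 0.00173 and 0.00523), and the count was 10 of 10.

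Of the 18 tested probe sets, 15 rose from N to N tax. Beside the single probe sets of HERPUD1 and XBP1, the second probe set of HSP90B1 was not called, with a difference of 0.23 (adjusted p = 0.606). Both tested HSP90B1 probe sets carry the suffix with which the manufacturer marks possible cross-hybridization. Their signal is thus uncertain as a measure of this gene alone. Further HSP90B1 probe sets are annotated jointly with a microRNA gene and were excluded by the rule on symbols alone. Of the 8 rises, those of DNAJB9, SDF2L1 and DNAJC3 no longer passed when any 1 of the 4 N and N tax arrays was left out, which left 5 calls. DNAJC3 also no longer passed without any 1 of the H and H epi arrays (adjusted p = 0.0529 to 0.0702). The sizes of the 3 differences without an array were 3.08 to 3.42, 0.89 to 1.30 and 0.67 to 1.03.

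**Figure D3:**
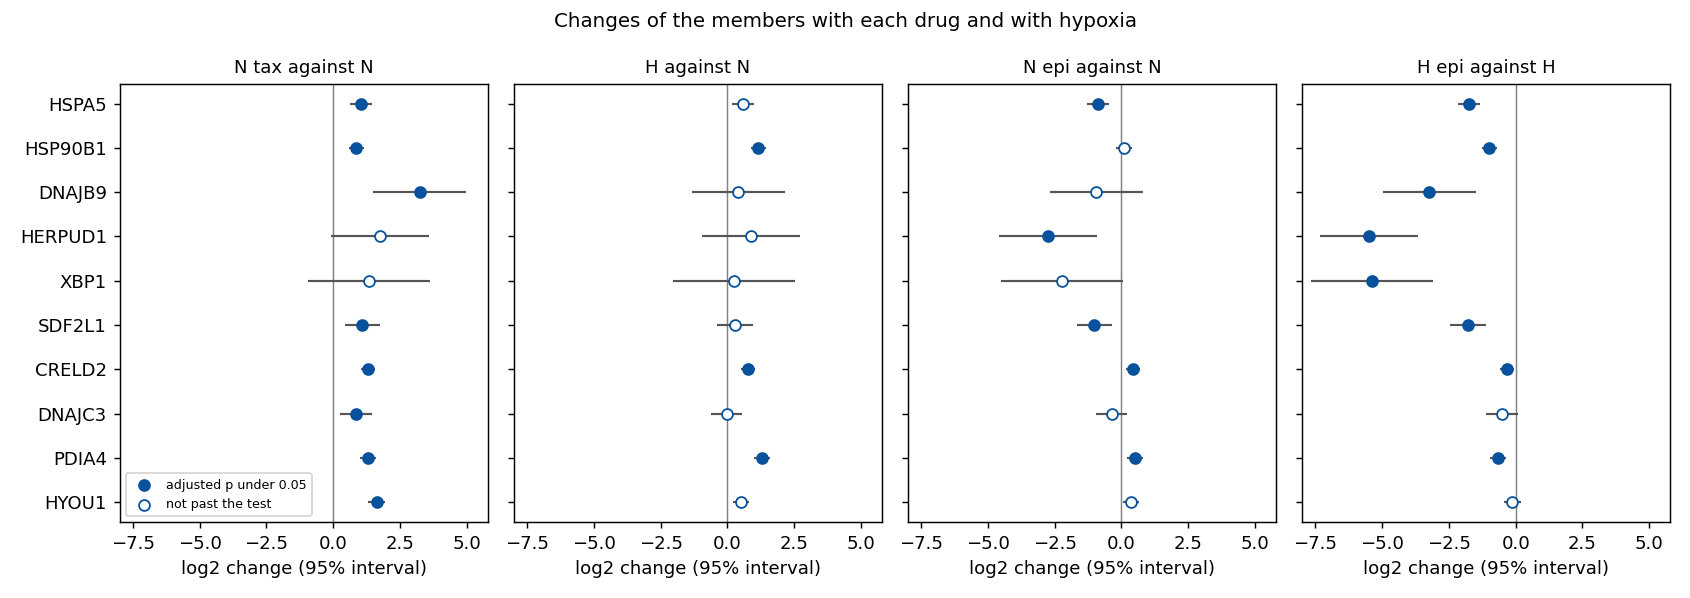
Log2 change of each gene in 4 comparisons, with 95% intervals from the fit on the x axis, in which points past the threshold are filled and the others open. In N tax against N all points lie right of 0, while in N epi against N they lie on both sides and the widest intervals belong to DNAJB9, HERPUD1 and XBP1.

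Under hypoxia, paclitaxel was compared with drug-free hypoxic cells. Here 3 of the 10 genes rose and none fell, beside 13% of all probe sets that rose and 17% that fell. DNAJB9 was at 10.63 and 10.36 in H and at 13.32 and 13.08 in H tax, a 6.51-fold rise (log2 change 2.70, adjusted p = 0.0286). HYOU1 was at 11.99 and 11.97 in H and at 13.16 and 13.39 in H tax, a rise of 1.29 (adjusted p = 0.00038). CRELD2 was at 11.37 and 11.39 in H and at 12.04 and 12.29 in H tax, a rise of 0.78 (adjusted p = 0.00156). The H and H tax arrays of these 3 genes did not overlap. The DNAJB9 rise was 2.57 to 2.84 and no longer passed without any 1 of the 4 H and H tax arrays.

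The other 7 genes did not pass the test between H and H tax. HSP90B1 was at 12.07 and 11.87 in H and at 11.99 and 12.03 in H tax, with overlapping arrays and a difference of 0.04 (adjusted p = 0.881). PDIA4 was at 10.82 and 10.63 in H and at 10.87 and 10.84 in H tax, a difference of 0.13 (adjusted p = 0.533). HSPA5 was at 14.71 and 14.48 in H and at 15.13 and 15.03 in H tax, a difference of 0.48 (adjusted p = 0.0806). The H and H tax arrays of PDIA4 and HSPA5 did not overlap. The differences of HERPUD1 (0.91), XBP1 (0.80), SDF2L1 (0.78) and DNAJC3 (0.38) also did not pass, while 2 of the other DNAJC3 probe sets rose by 0.64 and 0.72. Without either N epi array, HSPA5, HERPUD1 and XBP1 passed as well, which gave 6 calls.

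Hypoxia without drug raised PDIA4, HSP90B1 and CRELD2. From N to H, these 3 of the 10 genes rose and none fell, beside 4.41% of all probe sets that rose and 5.11% that fell, and the median change was 0.55 over the 10 genes and -0.02 over all probe sets. PDIA4 had the widest rise, 1.30 log2 units or 2.47-fold (standard error 0.13, adjusted p = 0.00125), with the H arrays at 10.82 and 10.63 above the N arrays at 9.48 and 9.37. Its second probe set rose by 1.19. HSP90B1 rose by 1.17 (standard error 0.13, adjusted p = 0.00172), with a second probe set at 0.91 (adjusted p = 0.0708). CRELD2 rose by 0.79 (standard error 0.11, adjusted p = 0.00567), or by 0.75 with an adjusted p of 0.0567 when N replicate 2 was left out.

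HSPA5 differed between its probe sets. The brighter one was 0.59 higher in H (adjusted p = 0.0842). The dimmer one, at 8.32 and 8.38 in N and at 9.97 and 9.69 in H, rose by 1.48 (standard error 0.23, adjusted p = 0.00779). HYOU1, whose name stands for hypoxia up-regulated, was 0.51 higher in H with no overlap of the arrays (standard error 0.14, adjusted p = 0.0541). HSPA5 (adjusted p = 0.0361), HERPUD1 (0.0424) and HYOU1 (0.0432) passed the test when either N epi array was left out, which gave 6 calls.

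The remaining genes did not pass the test from N to H. DNAJB9 differed by 0.41 (adjusted p = 0.861), SDF2L1 by 0.29 (adjusted p = 0.658) and XBP1 by 0.24 (adjusted p = 0.962). SDF2L1 was at 9.38 and 9.25 in H. XBP1 was at 10.55 and 10.10 in H, which overlapped the N arrays, and so did DNAJC3 at 9.50 and 9.41, with a difference of -0.02. HERPUD1 was at 12.36 and 11.62 in H and differed by 0.90 from N.

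With paclitaxel present, hypoxia changed none of the 10 genes past the limma test, and 2 of them, HSP90B1 (0.33) and CRELD2 (0.26), had an unadjusted p under 0.05. Over all probe sets, 1.06% rose and 0.273% fell from N tax to H tax. The 95% interval of the hypoxia effect there ran from -0.16 to 0.44 for PDIA4, from -0.38 to 0.45 for HSPA5 and from 0.05 to 0.62 for HSP90B1. The interval was far wider for HERPUD1, from -1.79 to 1.87. The effect of hypoxia with paclitaxel was below that without drug for all 10 genes, by 0.32 for SDF2L1 to 1.16 for PDIA4, but none of these differences passed the test (adjusted p = 0.10 for PDIA4). At an unadjusted p under 0.05 there were 3, those of PDIA4, HSP90B1 and CRELD2. Of all probe sets, 0.0331% had a higher and 0.087% a lower effect in this contrast. The 2 effects use separate arrays, but the fit shares 1 estimate of the spread.

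With epirubicin present, hypoxia again changed none of the 10 genes past the limma test, beside 0.381% of all probe sets that rose and 1.13% that fell. DNAJB9 (-1.88), HERPUD1 (-1.85) and XBP1 (-2.90) had an unadjusted p under 0.05, with H epi arrays below both N epi arrays. Leaving out N epi replicate 1 turned these into -3.40, -3.42 and -4.89, so their size depends on 1 array. The gap between the N epi arrays then no longer enters the spread, and no call is read from that fit. SDF2L1 differed by -0.99 when H epi replicate 1 was left out.

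Set against the effect without drug, the hypoxia effect with epirubicin was lower for 3 of the 10 genes and higher for none, beside 2.23% and 1.73% of all probe sets. The difference of the effects was -1.18 log2 units for PDIA4 (standard error 0.19, adjusted p = 0.0181), -1.08 for HSP90B1 (standard error 0.18, adjusted p = 0.0196) and -0.75 for CRELD2 (standard error 0.16, adjusted p = 0.0442). These were the genes that rose from N to H, a comparison that uses some of the same arrays, and from N epi to H epi they differed by 0.13, 0.09 and 0.04. The count was 0 without N replicate 1, without N replicate 2 or without H replicate 1, and it was 7 without N epi replicate 1. Median centring of each array also gave 0, with PDIA4 at -1.04 (adjusted p = 0.0686). The hypoxia effect with paclitaxel set against that with epirubicin passed the limma test for none of the 10 genes, also at an unadjusted p under 0.05, beside 0.654% higher and 0.166% lower over all probe sets. Without N epi replicate 1 it passed for DNAJB9 (3.26), HERPUD1 (3.46) and XBP1.

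**Figure D4:**
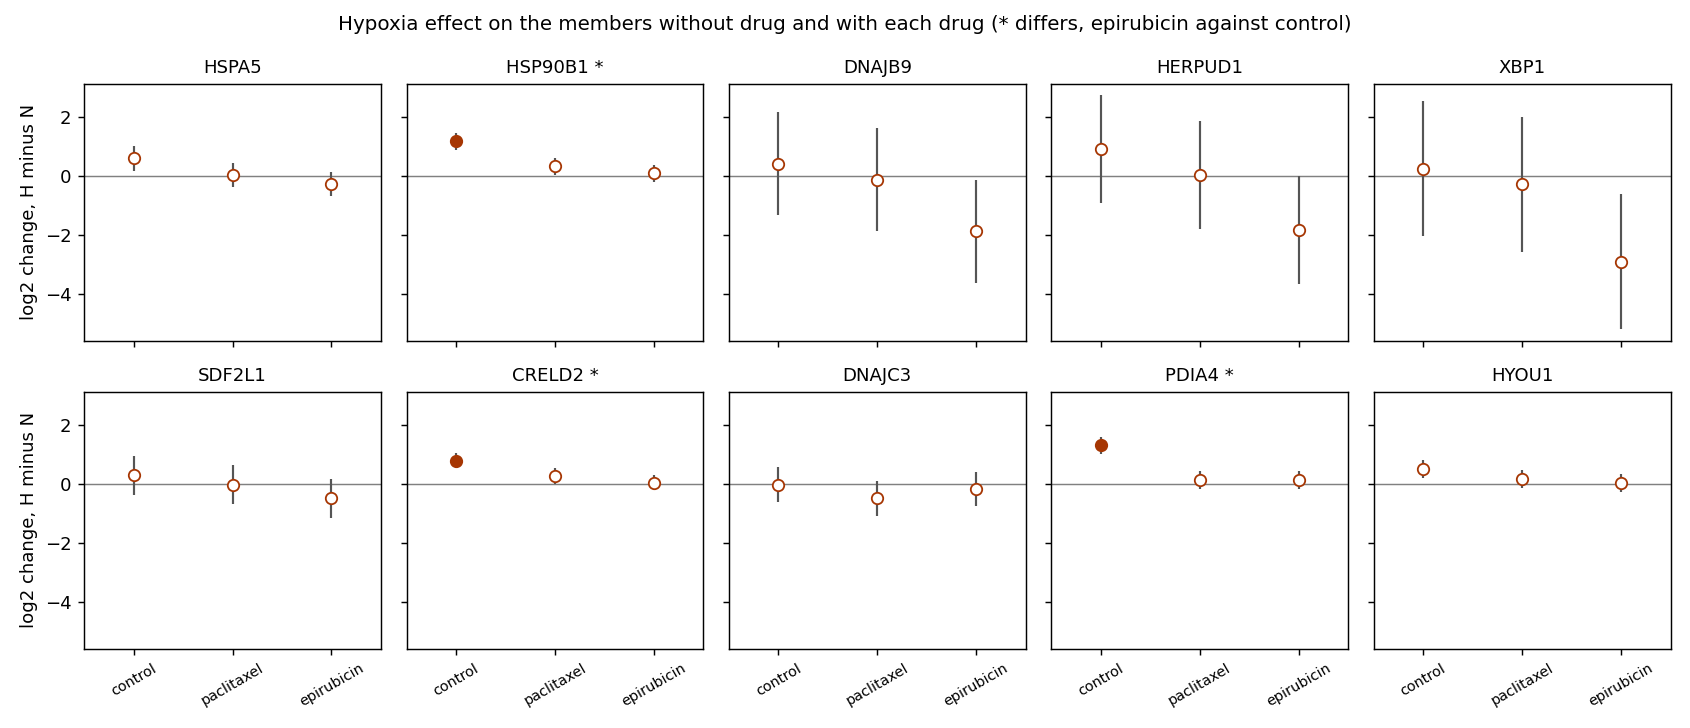
Hypoxia effect on each gene (log2 change, H minus N) without drug, with paclitaxel and with epirubicin, with 95% intervals on the y axis, filled points past the test and an asterisk where the effect with epirubicin differed from that without drug. HSP90B1, CRELD2 and PDIA4 carry the filled points and the asterisks, and with either drug no gene has a filled point.

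Epirubicin under normoxia left the genes without a common direction. From N to N epi, 3 of the 10 fell and 2 rose, beside 27.8% of all probe sets that fell and 24.7% that rose, so these shares were near those of the array as a whole and are not a result about the 10 genes. The genes that fell were HSPA5, HERPUD1 and SDF2L1, and those that rose were PDIA4 and CRELD2. The median difference was -0.63 over the 10 genes. Median centring adds 0.41 log2 units to every change in this comparison, and with it 69.3% of the called probe sets rose, against 47.1% in the deposited values and 58.2% after quantile normalization. With it HSP90B1 (0.50) and HYOU1 (0.76) passed as rises as well.

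HERPUD1 fell by 2.75 log2 units, or 6.71-fold (standard error 0.80, adjusted p = 0.0196), with the N epi arrays at 6.78 and 9.91, both below the N arrays. HSPA5 was at 12.87 and 13.37 in N epi, again below both N arrays, and fell by 0.89 (standard error 0.18, adjusted p = 0.00407), or with an adjusted p of 0.0514 in a fit of only the N and N epi arrays. Its second probe set differed by -0.34 (adjusted p = 0.251). SDF2L1 was at 8.01 and 8.02 and fell by 1.02 (adjusted p = 0.018). XBP1 was at 5.88 and 9.84, a difference of -2.23 that did not pass the test (adjusted p = 0.092). DNAJB9 was at 7.62 and 10.66, on either side of the N arrays, with a difference of -0.95 (adjusted p = 0.325).

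The N epi arrays thus disagreed on 3 of the 10 genes. The gap between them was 3.04 log2 units for DNAJB9, 3.13 for HERPUD1 and 3.96 for XBP1, as large or larger on 0.861%, 0.758% and 0.282% of the tested probe sets. For the other 7 genes the gap was at most 0.50. Without N epi replicate 2, the differences from N were -2.47 for DNAJB9 and -4.21 for XBP1. Without N epi replicate 1, DNAJB9 was instead 0.57 higher than in N. Each of these values rests on 1 N epi array. SDF2L1 no longer passed without either N epi array (adjusted p = 0.0635 and 0.0519).

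PDIA4 was at 10.01 and 9.85 in N epi, above both N arrays, and rose by 0.50 (standard error 0.13, adjusted p = 0.0124), while its second probe set differed by 0.27 (adjusted p = 0.20). CRELD2 was at 11.01 and 11.04, also above both N arrays, and rose by 0.44 (standard error 0.11, adjusted p = 0.0124). HYOU1 was at 11.70 and 11.95, a difference of 0.36 (adjusted p = 0.0565). HSP90B1 was at 10.90 on both arrays, a difference of 0.10 (adjusted p = 0.544), and DNAJC3 at 8.91 and 9.32, a difference of -0.37 (adjusted p = 0.264). Leaving out N replicate 1 ended the falls of HERPUD1 and SDF2L1 and gave 3 calls. Leaving out N replicate 2 ended the fall of HERPUD1 and both rises, and gave 2.

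Under hypoxia epirubicin was followed by lower levels in most of the genes. From H to H epi, 8 of the 10 fell and none rose, beside 32.5% of all probe sets that fell and 30.9% that rose, and the median difference was -1.37 over the 10 genes and 0 over all probe sets. HERPUD1 fell by 5.50 log2 units, or 45.1-fold (standard error 0.80, adjusted p = 0.000441), to 6.59 and 6.40 on the H epi arrays. XBP1 fell by 5.37, or 41.5-fold (standard error 1.00, adjusted p = 0.00162), to 5.18 and 4.73. These were the widest falls of the 10 genes, and the H epi arrays lay below every other array of both genes.

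DNAJB9 fell by 3.23 (adjusted p = 0.00565), to 7.25 and 7.28. Its other probe sets differed by -2.34, past the test, and by -1.68 (adjusted p = 0.0625). SDF2L1 fell by 1.79 (adjusted p = 0.000776), to 8.02 and 7.03. HSPA5 fell by 1.76, or 3.38-fold (standard error 0.18, adjusted p = 8.12e-05), to 12.99 and 12.69. In all 3 genes both H epi arrays lay below both H arrays.

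HSP90B1 fell by 0.98 (adjusted p = 0.000226), to 10.86 and 11.12, and PDIA4 by 0.67 (adjusted p = 0.00218), to 9.96 and 10.15. CRELD2 fell by 0.31 (adjusted p = 0.0402), to 11.10 and 11.03, and no longer passed without any 1 of the N, H and H epi arrays. DNAJC3, at 9.10 and 8.78, differed by -0.52 (adjusted p = 0.111) and HYOU1, at 11.90 and 11.81, by -0.12 (adjusted p = 0.456). Median centring adds 0.54 log2 units to every change here and raises the share of called probe sets that rose from 48.8% to 69.6% (60% after quantile normalization). With it CRELD2 was 0.23 higher (adjusted p = 0.21), HYOU1 rose by 0.41 (adjusted p = 0.0319), and HSP90B1 (-0.45) and PDIA4 (-0.13) no longer passed. The falls of HSPA5, DNAJB9, HERPUD1, XBP1 and SDF2L1 kept their direction and passed under median centring.

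The 3′ to 5′ difference of the ACTB control probe sets, a sign of RNA quality, was -0.31 to -0.21 on the 4 epirubicin arrays and -0.04 to 0.32 on the other 8. That of the GAPDH control probe sets was 0.425 to 0.483 on the epirubicin arrays and 0.391 to 0.49 on the others. The ACTB difference was -0.02 and -0.04 in N and 0.23 and 0.11 in N tax. It was 0.20 and 0.07 in H and 0.32 and 0.24 in H tax. The part of RNA quality in the drug and hypoxia comparisons was not tested. Comparisons against N share the N arrays, and those against H share the H arrays.

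Over the 12 arrays the 10 genes had profiles of differing shape, given here as a description, since arrays of 1 condition are alike and the arrays share their normalization. HERPUD1 and XBP1 were the closest pair (Pearson r = 0.981 over 12 arrays). XBP1 and PDIA4 were the farthest (r = 0.407). PDIA4, CRELD2, HSP90B1 and HYOU1 had higher means in N epi than in N, and the other 6 genes had lower ones. After median centring DNAJC3 joined those with a higher mean (0.04). The genes outside the list whose profile was most like the mean standardized profile of the 10 were MANF (r = 0.985), WDR48 (0.980), C9orf72 (0.978), NAMPT (0.976) and DDX60 (0.973). MANF, an ER-resident secreted stress factor, had means of 12.01 in N, 12.52 in H, 13.52 in N tax, 13.51 in H tax, 11.60 in N epi and 11.33 in H epi.

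Other genes of the pathway were counted in 4 lists. The shares over all probe sets to read them against are 9.49% higher and 13.8% lower from N to N tax, 4.41% and 5.11% from N to H, and 24.7% and 27.8% from N to N epi. Of 17 tested ER folding genes, 13 rose and none fell from N to N tax, with a median change of 0.71. Beside MANF (1.51), they included ERO1B (2.29), an oxidase that recharges disulfide isomerases, and PDIA3 (1.25), the isomerase for glycoproteins. The N arrays of ERO1B were at 3.97 and 3.01, 1 of them under the presence threshold (3.14 in log2), so the size of its rise is uncertain. From N to H, 4 of the 17 rose, among them ERO1A (1.38), the other ERO1 oxidase, PDIA6 (0.69) and MANF (0.50). From N to N epi, 5 rose and 1 fell, with rises near the share over all probe sets, and they included the isomerase PPIB (0.64), the HSP40 reductase DNAJC10 (0.56) and SIL1 (0.53), a nucleotide exchange factor of HSPA5.

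Of 17 tested genes of ER-associated degradation, 9 rose and none fell from N to N tax (median 0.50), 1 rose and 1 fell from N to H, and 7 rose and 1 fell from N to N epi. SELENOS, a selenoprotein of the dislocation complex, rose by 1.53 with paclitaxel, SEL1L, the scaffold of the HRD1 ligase, by 1.30, and EDEM1, a mannosidase-like lectin, by 1.44. EDEM1 also rose from N to H, by 0.87, while the ubiquitin-conjugating enzyme UBE2G2 fell by 0.62 on its brightest probe set (its other 3 ranged from -0.78 to 0.01). With epirubicin UBE2G2 rose by 0.85 and AUP1, its membrane anchor, by 0.74. HERPUD2, the paralogue of HERPUD1, fell by 1.52 (N epi arrays at 7.24 and 8.90, N arrays at 9.64 and 9.54).

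Among the 13 stress sensors and factors, all tested, 5 rose and none fell from N to N tax (median 0.44). DDIT3, the transcription factor CHOP, rose by 3.83 (adjusted p = 0.0227) and PPP1R15A, which restores translation by dephosphorylating eIF2α, by 2.85 (adjusted p = 0.00897). EIF2AK3, the gene of PERK, rose by 1.56 (adjusted p = 0.0363), from 8.20 and 8.05 to 9.81 and 9.56, and ATF6 differed by 0.44 (adjusted p = 0.068). None of the 13 passed the limma test from N to H, and 1, ATF6 (0.55, adjusted p = 0.0571), had an unadjusted p under 0.05, while EIF2AK3 differed by 0.61 and ERN1 by -0.76. From N to N epi 2 rose and 3 fell, beside 24.7% of all probe sets that rose and 27.8% that fell. These counts are not a result about the list. One of the rises, ATF6B, was below the presence threshold on all 4 of these arrays, and its level is not read. EIF2AK3 fell by 2.36 and TRIB3, a pseudokinase induced by CHOP, by 2.94, while ATF6 rose by 0.82 and ERN1 differed by 0.79 (adjusted p = 0.533). The N epi arrays were at 4.94 and 6.59 for EIF2AK3 and 6.94 and 9.81 for TRIB3. From H to H epi EIF2AK3 fell by 5.37 (adjusted p = 3e-05). Its H epi arrays were at 3.44 and 3.29, just above the presence threshold (3.14 in log2), so the size of this fall is uncertain.

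Of 14 tested genes of translocation into the ER and retrieval to it, 8 rose and none fell from N to N tax (median 0.53), 1 rose and 1 fell from N to H, and 6 rose and none fell from N to N epi. SEC61A1, the channel subunit, rose by 1.16 with paclitaxel. SEC11C, of the signal peptidase, rose by 1.36 with paclitaxel and by 1.26 with epirubicin. SRPRB, the anchor of the signal recognition particle receptor, rose by 1.29 with paclitaxel and by 1.11 with epirubicin, and it fell by 0.73 from N to H. KDELR3, a receptor that returns ER proteins from the Golgi, rose by 0.92 from N to H. SEC63, which couples HSPA5 to the channel, rose by 0.66 with epirubicin.

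Under hypoxia the same lists gave these counts. From H to H tax, 7 of the 17 folding genes rose and none fell, 10 of the 17 degradation genes rose and none fell, 6 of the 13 sensors and factors rose and 1 fell, and 8 of the 14 translocation and retrieval genes rose and 1 fell. These counts stand beside 13% of all probe sets that rose and 17% that fell. ERN1, the gene of IRE1, rose by 3.44 there (adjusted p = 0.0299), a value from its brightest probe set, while the remaining 2 differed by 0.64 and 0.95. From N to N tax these differences were 2.58 (adjusted p = 0.0951), 0.08 and 0.41. From H to H epi, the counts of rises and falls were 4 and 2 for folding, 8 and 3 for degradation, 3 and 2 for sensors and factors, and 8 and 1 for translocation and retrieval, beside 30.9% and 32.5% of all probe sets. ATF6B, 1 of the 3 sensors and factors that rose, passed the filter on low signals only through the H epi arrays. PDIA5, TXNDC5, SYVN1, SEC61G and KDELR2 were not analysed here, since no probe set carries their symbol alone.

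**Figure D5:**
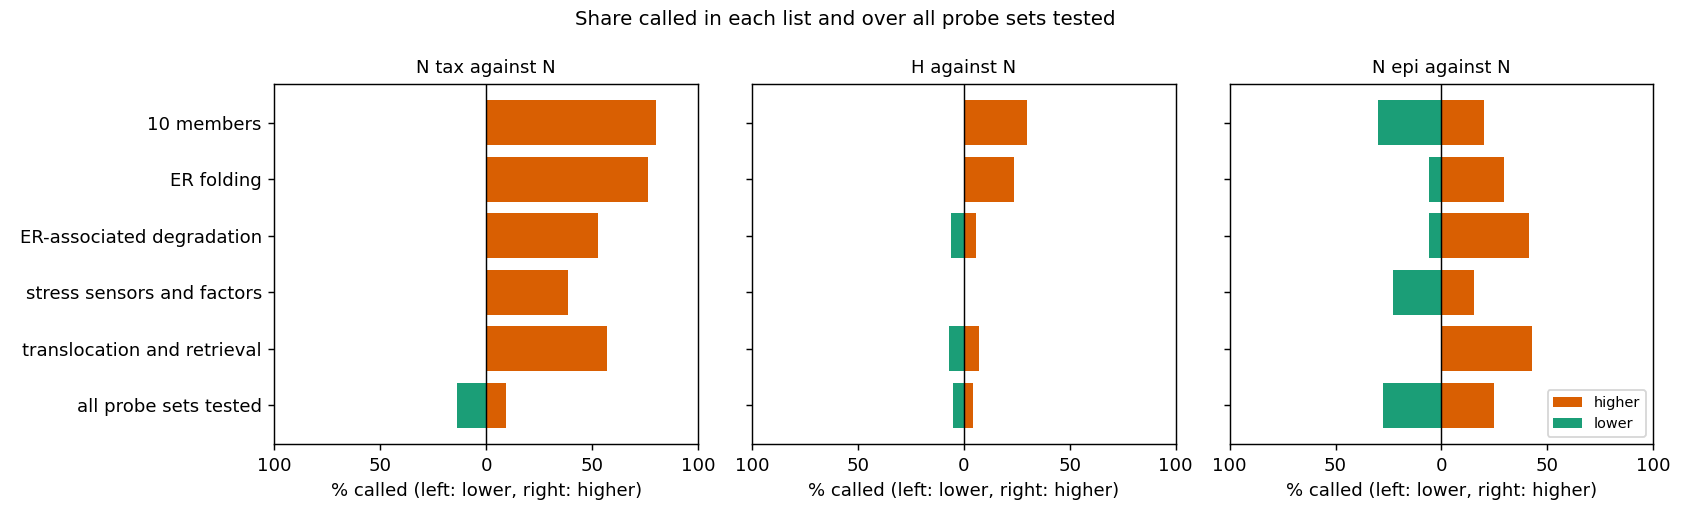
Percent of each list called higher (right of 0) and lower (left of 0) for paclitaxel, hypoxia and epirubicin against N, for the 10 genes, the 4 other lists and all 24151 probe sets tested. With paclitaxel the bars of the lists point right, 8 of 10, 13 of 17, 9 of 17, 5 of 13 and 8 of 14, beside 9.49% of all probe sets.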

How the data were processed

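MDA-MB-231 cells were profiled on Affymetrix HG-U133 Plus 2.0 arrays. GC-RMA was used by the authors, and the log2 signals they deposited were taken here without further normalization. Standard probe set names were used and updated to current symbols through the gene table of the platform. Of 18 arrays, 12 had labels that name 1 condition (2 arrays each), and 6 were left out of the main fit. All conditions entered 1 fit in limma 3.58.1 (R 4.3.3) over the 24151 probe sets with a linear signal above 8.84 on both arrays of at least 1 condition, the study's presence threshold (2 times the basal 4.42). There were 6 residual and 2.28 prior degrees of freedom. The 10 contrasts were 7 simple comparisons and 3 differences of hypoxia effects, two-sided, each with Benjamini-Hochberg adjustment over all probe sets tested and a threshold of 0.05, with no adjustment across contrasts. A gene was represented by its brightest probe set. From each other list, up to 3 called genes with the largest changes were named for H, N tax and N epi against N, and ERN1, EIF2AK3 and ATF6 in every case. The 5 genes most like the mean profile were named by Pearson correlation. The members and lists were chosen with earlier results of these data known. The number of arrays limits the precision. Promoter sequences came from RefSeq (GRCh38.p14). Alternatives covered scaling, filter, variance model, replicate block, arrays in the fit and arrays left out.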

Additional observations from a re-analysis of the deposited data

Results flagged for a closer look

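In 4 probe sets the hypoxia effect with epirubicin differed from that without drug by a test of the difference itself (limma, 2 arrays per condition). The difference was -1.49 log2 units for the dimmer HSPA5 probe set (adjusted p = 0.0476), -1.08 for HSP90B1 (adjusted p = 0.0196), -0.75 for CRELD2 (adjusted p = 0.0442) and -1.18 for PDIA4 (adjusted p = 0.0181). In all 4 the H arrays lay above both N arrays, while the H epi and N epi arrays overlapped. The brighter HSPA5 probe set differed by -0.87 (adjusted p = 0.105). With 2 arrays per condition, no single array could be tested as lying apart from the others of its condition.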

How the results depend on the processing

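Over 21 alternatives, 2100 changes of the 10 genes were recomputed: 1938 kept their side of the threshold, 97 lost their call, 59 gained one, and 6 changed sign with a call before or after. Another 47 that were not called changed sign, 14 of them with the third arrays added by source name. That setting also gave 27 of the 97 lost calls and 3 of the 6 changes of sign with a call. Median centring gave 5 calls from H to H tax and 0 for the hypoxia effect with epirubicin against control, and it turned CRELD2 (0.23) and HYOU1 (0.41) from H to H epi. No presence filter gave 5 calls from N to N tax and 3 from N to N epi, with 54613 probe sets tested. The third arrays added by title gave 5 calls from N to H, 8 from N to N epi, 6 from H to H tax and 1 for the hypoxia effect with paclitaxel against control (PDIA4). Added by source name, they gave 0 calls from N to H, N to N tax, N to N epi, H to H tax, H to H epi and for the hypoxia effect with epirubicin against control, and among called changes turned SDF2L1 from N to N tax (-0.12), CRELD2 from N to N epi (-0.086) and DNAJB9 from H to H tax (-0.13). A trended and robust variance gave 5 calls from N to H. A fit of only the arrays compared gave 3 calls from N to N epi and 0 for the hypoxia effect with epirubicin against control. The cause of these differences was not tested.

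With 1 array left out, the calls ranged from 2 to 6 from N to H, between 0 and 3 for H epi against N epi, from 5 to 10 from N to N tax, from 2 to 6 from N to N epi, from 2 to 6 from H to H tax and from 7 to 8 from H to H epi. They ranged from 0 to 7 for the hypoxia effect with epirubicin against control and from 0 to 3 for that with paclitaxel against epirubicin, and were 0 throughout from N tax to H tax and for the hypoxia effect with paclitaxel against control. DNAJB9 from N to N epi ranged from -2.47 without N epi replicate 2 to 0.57 without N epi replicate 1. Deviations of same-numbered arrays from their condition means correlated at -0.18 to 0.30 over 15 pairs of conditions, 6 of them negative. The highest values were for N tax with H tax (0.302), N with N epi (0.165) and N with H (0.121). The numbers were not taken as pairs in the main fit. The replicate block gave 7 calls from H to H epi and 2 for the hypoxia effect with epirubicin against control, since CRELD2 no longer passed in either (adjusted p = 0.0548 and 0.0689), and it changed no other call. A lone array left in a condition is assumed to vary like the others. Without either N epi array, the gap between them no longer enters the spread, so calls gained there are no support for a change. With 2 arrays per condition, wide intervals limit what can be said of DNAJB9, HERPUD1 and XBP1.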

Other observations

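The 6 arrays whose title and source name name different drugs were assigned to no condition in the main fit. They entered only the alternatives that added them by title or by source name. Their values are given here without a comparison, and which label is right was not tested. DNAJB9 was at 10.13 on the array titled N without drug (source name epirubicin), at 10.20 on that titled H without drug (epirubicin), at 13.61 on that titled N with paclitaxel (control), at 13.27 on that titled H with paclitaxel (control), at 7.67 on that titled N with epirubicin (paclitaxel) and at 7.48 on that titled H with epirubicin (paclitaxel). In the same order, the signal of HERPUD1 was 11.11, 11.90, 12.95, 12.95, 6.86 and 6.40, and that of XBP1 was 10.04, 10.49, 11.76, 11.38, 5.74 and 5.34. The signal of HSPA5 was 13.95, 14.38, 15.21, 15.31, 13.17 and 13.12, and that of PDIA4 was 9.79, 10.42, 10.79, 10.78, 9.93 and 10.09.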
